A study of Mus musculus with 2 samples.

Results

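Replication-dependent histone genes encode the H1, H2A, H2B, H3 and H4 proteins that package newly copied DNA. They were taken here as the protein-coding mouse genes whose GENCODE M21 symbol begins with Hist1h, Hist2h, Hist3h or Hist4h. The annotation held 67 such genes, and 64 were matched by gene identifier in both tables, out of 43346 genes in all. Hist1h2bh, Hist1h2bm and Hist2h2bb were not matched by gene identifier. The RNA came from hearts of newborn mice of strain B6NTac;B6NCrl/Lap, taken at postnatal day 0 and pooled over males and females. RNA above 200 nucleotides, freed of ribosomal RNA and mixed with ERCC spike-in RNAs, gave stranded libraries read from both ends for 101 nucleotides. There was 1 group, healthy and untreated, with 2 biological replicates from independent isolates under the same donor label. Replicate 1 pooled 15 mice, and the number behind replicate 2 was not given.

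These genes sit in clusters and mostly lack introns. Their messenger RNAs are made mostly during S phase and end in a conserved hairpin in place of a poly(A) tail. The hairpin is bound by the stem-loop binding protein SLBP, and cleavage beyond it uses the U7 small nuclear ribonucleoprotein. Total RNA libraries keep such messages, whereas selection on poly(A) would lose most of them. In the newborn heart, cardiac muscle cells are still leaving the cell cycle, and non-muscle cells divide as well.

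The hairpin is shown first because it is the feature that the family shares and that the choice by symbol did not use. A hairpin was searched for in the first 120 bases after the stop codon of GENCODE M21 transcripts as a perfect stem of 6 pairs that begins with GG, around a loop of 4 bases. It was found in 44 of 64 members, against 97 of 21607 other protein-coding genes (0.449%). Of the 20 members without a match, 14 had models that ended too close to the stop codon to hold the 16 bases. The hairpin began 22 to 59 bases after the stop codon, with a median of 32.5. The 5 of 8 forms carried by more than 1 member are given with 5 flanking bases on each side and the hairpin in capitals, each from the member of highest level that carries it.
Hist2h2aa2: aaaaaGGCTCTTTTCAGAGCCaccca
Hist1h3c: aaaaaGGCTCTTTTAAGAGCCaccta
Hist1h4d: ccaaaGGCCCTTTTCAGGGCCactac
Hist2h4: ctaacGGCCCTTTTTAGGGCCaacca
Hist1h4j: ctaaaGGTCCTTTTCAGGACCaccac
On GRCm38 these stretches lie at chr3:96239779-96239804 (minus strand), chr13:23745042-23745067 (minus), chr13:23581945-23581970 (plus), chr3:96262934-96262959 (minus) and chr13:21735432-21735457 (plus).

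The form printed for Hist2h2aa2 was carried by 24 members, of which 3 were H1, 10 H2A, 6 H2B and 5 H3 genes. The form of Hist1h3c was carried by 6 members, and again none was an H4 gene. The stem of Hist1h4d was carried with the same loop by 7 members, all of them H4 genes. All 12 H4 members with a hairpin had a stem that differed from the stem of the other types. The 6 members with at least 16 bases after the stop codon but without a match were Hist1h1a, Hist1h2bc, Hist1h2bq, Hist1h2br, Hist2h2be and Hist2h3b. The model of Hist2h3b ends 37 bases after the stop codon. The hairpin of Hist2h3c1 and Hist2h3c2 begins at base 31, where the Hist2h3b model is too short to hold 16 bases. The model of Hist1h1a ends 48 bases after the stop codon, within the range where hairpins of other members begin. No match says only that these letters are not in the window.

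Promoters separated the types in another way. RefSeq promoters on GRCm38.p6, each 250 bases before to 50 after a gene's start, were matched for 59 of 64 members. Those of Hist1h2bc, Hist1h3a, Hist1h3f, Hist2h2be and Hist2h4 were not matched. The letters CCAAT, which nuclear factor Y binds, were found on either strand in 84.7% of members and in 37.4% of all 32851 promoters. They were in all 18 H2A, all 13 H2B, all 10 H3 and all 6 H1 promoters, but in 3 of 12 H4 promoters. The letters TATAAA were in 35 of 59 members (59.3%) and in 13.6% of all promoters. The octamer ATTTGCAT, known as a site for Oct-1, was in 7 H2A and 4 H2B promoters and in none of the other members (1.74% of all promoters). The letters AAACACA, known from H1 promoters, were in 5 of 6 H1 promoters, 2 H2A promoters and 1 H2B promoter (7.18% of all promoters). None of the 4 motifs contains another, and the windows of divergent H2A and H2B neighbours overlap, so that their matches are partly the same letters.

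The promoter of Hist1h4d is printed because this gene had the highest TPM of the family in the deposited tables and the most counts. The 200 bases before its RefSeq start (chr13:23581368-23581567, plus strand) are given with TATAAA and CCAAT matches on either strand in capitals.
Hist1h4d: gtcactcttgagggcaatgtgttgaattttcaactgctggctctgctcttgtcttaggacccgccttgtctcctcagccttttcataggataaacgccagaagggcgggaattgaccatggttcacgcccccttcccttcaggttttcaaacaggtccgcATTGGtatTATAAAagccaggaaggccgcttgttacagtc

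Members were abundant per unit of length. Values are TPM, which divide the counts of a gene by its effective length, the number of positions a fragment can start from, and scale them to a common total. In replicates 1 and 2 their TPM added up to 21588 and 18232, which is 2.19% and 1.86% of the TPM of all genes. At a threshold of 1 TPM in both replicates, 57 of 64 members were detected (89.1%), beside 47.1 percent of protein-coding genes. A mean of 100 TPM or more was reached by 43 members, while 11 lay between 10 and 100 TPM and 3 between 1 and 10 TPM. Among protein-coding genes ranked by mean TPM, 12 members were in the top 100 and 45 in the top 500.

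The same genes took a far smaller part of the counts, which are not divided by length. Members held 506017 and 421034 expected counts, 0.723% and 0.572% of those of all genes. Ranked by summed counts, 1 member was in the top 100 and 14 were in the top 500. The median effective length of members was 195 bases, against 2202 bases for protein-coding genes whose mean TPM was at least 1. Effective length is the model length less about 289 bases in these tables, and 38 members had one under 250 bases. For such genes the TPM depends strongly on the length of the model. Counts or values with M21 lengths are given below for some genes only, and the other levels hold for the deposited models.

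**Figure D1:**
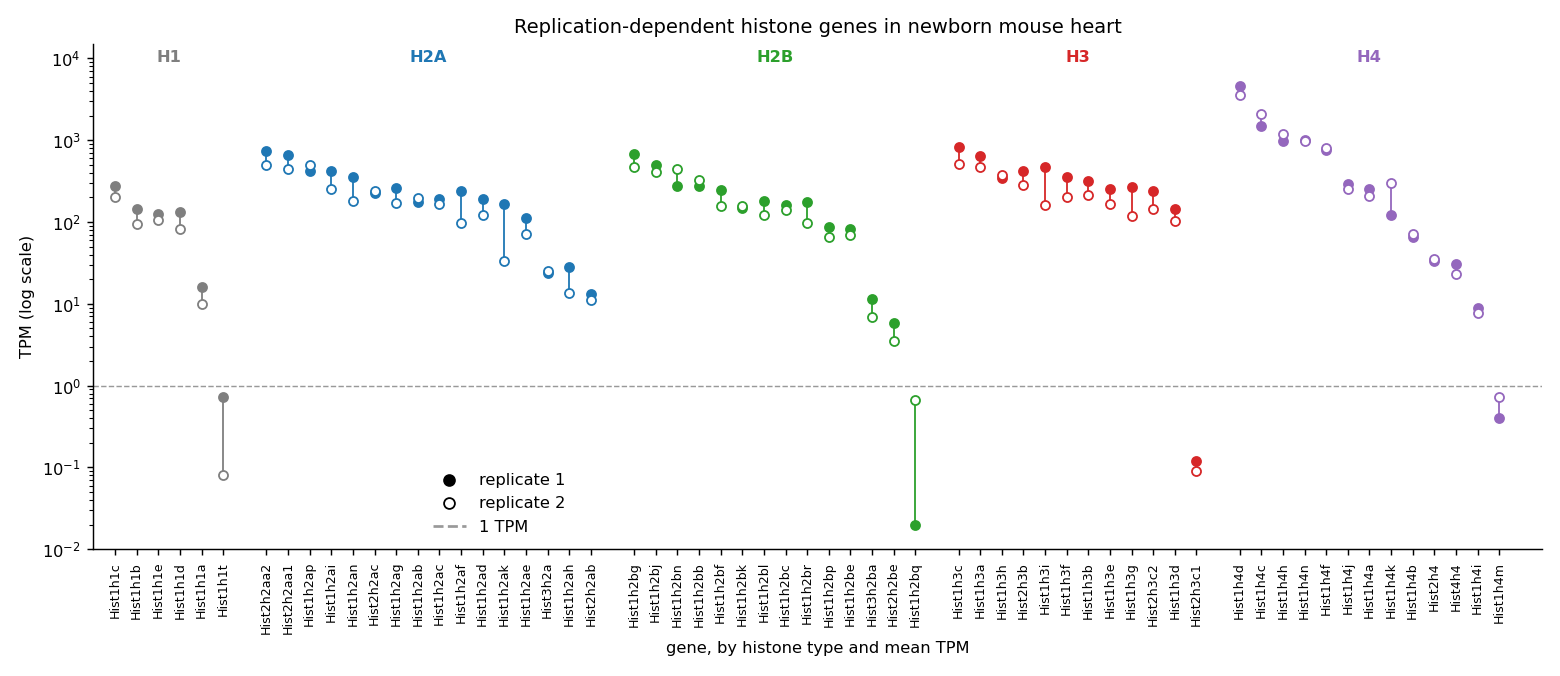
TPM of each histone gene (log scale) in replicate 1 (filled) and replicate 2 (open), by histone type and mean level, with a dashed line at 1 TPM. The 3 genes at 0 in both replicates are not drawn; Hist1h4d stands highest at 4533 and 3525 TPM, and 43 genes have a mean of at least 100 TPM.

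H4, which pairs with H3 in the core of the nucleosome, was the leading type. Its 13 genes encode 1 and the same protein and summed to 9573 and 9503 TPM, 44.3% and 52.1% of the family. Hist1h4d (ENSMUSG00000061482.6, chromosome 13, 23581598 to 23582735) reached 4533 and 3525 TPM in replicates 1 and 2, with 49858 and 41012 counts. It ranked 9 among protein-coding genes by TPM and 95 by counts. Hist1h4c followed at 1492 and 2112 TPM, Hist1h4h at 980 and 1186, and Hist1h4n at 996 and 967. Hist1h4d and Hist1h4n were lower and Hist1h4c and Hist1h4h were higher in replicate 2, and the deposited intervals of Hist1h4n overlapped. The others between these and the lowest ran from Hist1h4f at 760 and 812 TPM to Hist1h4i at 8.89 and 7.74. Without Hist1h4d, the other 12 H4 genes summed to 5040 and 5978 TPM. At the low end, Hist1h4m had 4.72 and 9.15 counts and 0.40 and 0.72 TPM.

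The place of Hist1h4d by TPM depends on the length of its model. The deposited tables gave its transcript 393 bases, an effective length of 104 in replicate 1, whereas GENCODE M21 gives 1138 bases. With the M21 length and the same counts it stood at 556 and 436 TPM, rank 7 in the family, and Hist1h4h was highest at 996 and 1205. Those counts were estimated on the shorter model and take in no reads beyond it. The M21 transcript of Hist1h4d holds 822 bases after the stop codon, while its hairpin begins 37 bases after it. Which length is nearer to the message was not tested. The place of Hist1h4c also depends on its model, of 395 bases in the deposited tables and 820 in M21. With the M21 length and the same counts it stood at 298 and 425 TPM, rank 13 in the family. Of the 60 members with 1 transcript in the tables, 18 had another length in M21, and 16 of them were longer there. With M21 lengths and the counts unchanged, H4 held 29.9% and 38.5% of the family. Without division by length, H4 held 28.7% and 35.3% of the members' counts. H4 thus had the highest share in each replicate on each of these 3 scales.

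H3 genes, whose tail carries many of the marks read by chromatin proteins, summed to 4286 and 2745 TPM over 12 members, 19.9% and 15.1% of the family. Hist1h3c was highest at 815 and 505 TPM, followed by Hist1h3a at 646 and 474, and with M21 lengths Hist1h3a was the higher. Hist1h3h was at 347 and 380 TPM and Hist2h3b at 424 and 282. Of these 4 genes, Hist1h3h alone was higher in replicate 2. Hist2h3c1 was lowest, at 0.12 and 0.09 TPM, and the other 7 ran from Hist1h3i at 469 and 159 TPM to Hist1h3d at 144 and 102. The 12 genes encode 2 proteins. The form shared by 8 genes, among them Hist1h3c and Hist2h3b, summed to 2554 and 1613 TPM, and the form of Hist1h3a, Hist1h3g, Hist1h3h and Hist1h3i summed to 1732 and 1132. Both forms were lower in replicate 2, by 0.66 and 0.61 on the log2 scale of summed TPM.

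H2A, which forms a dimer with H2B, summed to 4222 and 3014 TPM over 18 members, 19.6% and 16.5% of the family. The highest were 2 genes of the Hist2 cluster with identical coding sequences, Hist2h2aa2 at 748 and 496 TPM and Hist2h2aa1 at 666 and 439. Hist1h2ap stood at 415 and 504 TPM and Hist1h2ai at 415 and 250. Hist1h2ap was higher and the other 3 were lower in replicate 2. Of the other H2A genes with counts, Hist1h2an was highest at 353 and 179 TPM and Hist2h2ab lowest at 13.1 and 11.0. Hist1h2aa had 0 counts in both replicates, which allows up to 3 counts in each. Hist1h2ao was also listed at 0, but it is a copy of Hist1h2ap, and with deposited upper bounds of 0.76 and 0.87 TPM the limit of 3 counts does not hold for it. The H2A gene Hist1h2aa and its neighbour Hist1h2ba, known from male germ cells, were both at 0, as were 5 of 7 testis germ line markers, whose summed level was 0.04 and 0.03 TPM.

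H2B genes summed to 2818 and 2474 TPM over 15 members, 13.1% and 13.6% of the family. By gene identifier, Hist1h2bg was highest at 674 and 473 TPM, then Hist1h2bj at 492 and 414. Matched by transcript identifier, Hist1h2br was highest, at 911 and 751 TPM, since its transcript of 381 bases was listed under another gene. With M21 lengths, Hist1h2bj was highest and Hist1h2bg stood at 385 and 271 TPM. Hist1h2bn was at 278 and 447 TPM and Hist1h2bb at 278 and 322. The first pair was lower and the second pair higher in replicate 2. Hist1h2ba had 0 counts in both replicates and Hist1h2bq 4.53 and 134. The other 9 H2B genes ran from Hist1h2bf at 247 and 156 TPM to Hist2h2be at 5.75 and 3.50. By counts, H2A held 17.8% and 17.0% of the family and H2B 17.3% and 17.3%, closer to each other than by TPM.

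The linker histone H1, which binds DNA between nucleosomes, had the lowest share of the 5 types, with 689 and 495 TPM over 6 members, 3.19% and 2.72% of the family. Hist1h1c stood at 272 and 204 TPM, Hist1h1b at 143 and 94.0, Hist1h1e at 125 and 106, and Hist1h1d at 133 and 82.0. Hist1h1a was at 15.9 and 9.82 TPM. The testis form Hist1h1t had 34 and 4 counts, or 0.73 and 0.08 TPM. All 6 were lower in replicate 2. H1 messages are longer than those of the core histones, with a median effective length of 455 bases, and by counts H1 held 11.1% and 10.3% of the family.

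**Figure D2:**
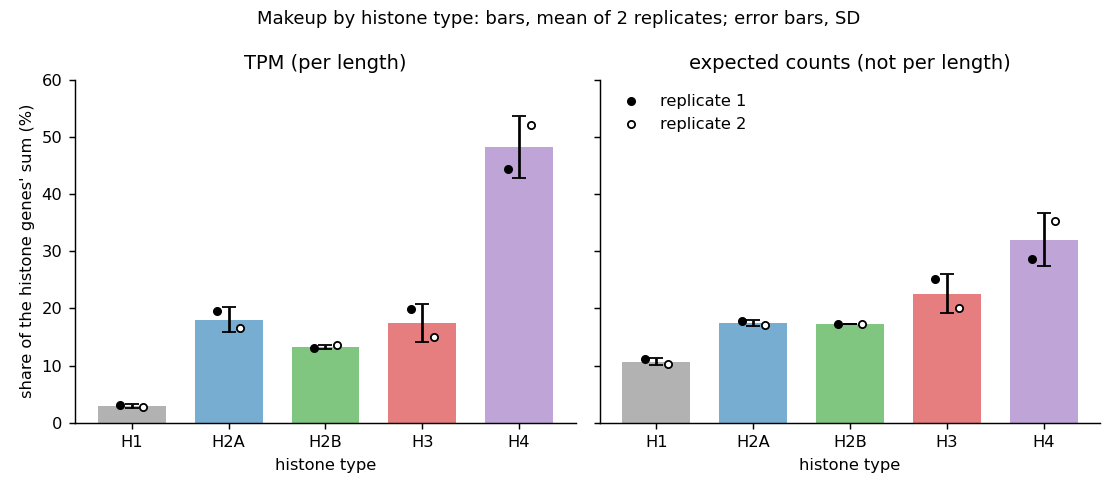
Share of each histone type in the summed TPM (left) and the summed expected counts (right) of the family, in percent; bars are means of 2 replicates, error bars SD, dots the replicates. H4 is highest on both scales, at 48.2 ± 5.50% of TPM and 32.0 ± 4.65% of counts, and H1 is lowest on both, at 2.95 ± 0.337% and 10.7 ± 0.602% (SD, n = 2).

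The Hist1 cluster on chromosome 13 (21715763 to 23934851), with 52 members, held 88.8% and 90.6% of the family's TPM. The 9 members of Hist2 on chromosome 3 (96219865 to 96269141) held 10.9% and 9.07%. Besides the H2A and H3 genes above, Hist2 held Hist2h3c2 at 242 and 146 TPM, Hist2h2ac at 224 and 241, and Hist2h4 at 33.7 and 35.6. Hist2h2ab was at 13.1 and 11.0 TPM and Hist2h2be at 5.75 and 3.50. By TPM, the Hist3 genes on chromosome 11 were lower than most of Hist1, with Hist3h2a at 23.5 and 25.04 and Hist3h2ba at 11.5 and 6.96. Hist3h2a had 4608 and 5153 counts over an effective length of 1857 bases in replicate 1. Its mean of 4880 counts was above the Hist1 median of 3923. Hist3h2ba had 396 and 251 counts. Hist4h4, the single gene of its cluster on chromosome 6, stood at 30.8 and 23.3 TPM. Its counts of 8428 and 6682 were above those of most members, and its effective length of 2590 bases was the greatest of the family.

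Near-identical copies limit what can be said of single genes. The 13 H4 genes, for one, encode their protein through 12 distinct coding sequences that were 85.3% to 100% identical between members. In the shortest M21 transcript of Hist2h2aa2, 100% of the windows of 101 bases, the length of a read, were also found in another member. The same held for the transcripts of 381 bases of Hist1h2bq and Hist1h2br, which the tables list under other genes than the counts given here. The share was 92.6% for Hist1h2ao, 88.1% for Hist1h4m and Hist2h2aa1, and 0% for Hist1h4d, Hist1h1a, Hist1h1b, Hist2h4, Hist4h4 and both Hist3 genes. In 4 of 5 duplicated pairs, the deposited estimates by gene identifier gave nearly all counts to 1 copy. Hist1h2ao had 0 counts and Hist1h2ap 8458 and 10828. Hist1h4m had 4.72 and 9.15 counts and Hist1h4n 14830 and 15211. Hist2h3c1 had 19.32 and 16.03 counts and Hist2h3c2 18635 and 11806. Hist1h2bq had 4.53 and 134 counts and Hist1h2br 17782 and 10383, without their transcripts of 381 bases. Only Hist2h2aa1 and Hist2h2aa2 shared theirs, with 20889 and 14481 against 18876 and 13185 counts. Each pair has identical coding sequences, so the sums are firmer than the single values where most windows are shared. For Hist2h3c1 and Hist2h3c2 the share of windows found in another member was lower, at 32.9% and 61.5%. The pair sums were 415 and 504 TPM for Hist1h2ao with Hist1h2ap, 996 and 968 for Hist1h4m with Hist1h4n, and 1414 and 935 for the Hist2h2aa genes.

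Most members were lower in replicate 2. Differences are log2 ratios of TPM in replicate 2 over replicate 1 with 0.1 TPM added, less the median of all genes whose mean TPM was at least 1. With 2 libraries of 1 group they carry no test, and p-values are not given. Of 57 members at this level, 43 were lower in replicate 2 (75.4%), where 50.0 percent of all 11594 such genes were. Centring on the median of those genes fixes their share at 50.0 percent. The median was -0.47. Scaled by spike-in total, 51 were lower and 6 higher, where 63.5 percent of all such genes were lower. The deposited TPM intervals of the replicates did not overlap for 52 members (91.2%), beside 73.3 percent of all such genes. Each interval comes from the estimate within a single library and does not measure variation between mice or libraries. The genes compared were not matched for counts, on which the width of an interval depends. The 5 members with overlapping intervals were Hist2h2ab, Hist1h4i, Hist1h4n, Hist1h2bk and Hist1h4b. Among the 57, the deposited posterior SD of a count was largest relative to the count for Hist1h2ah, at 5.36% and 8.08%.

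With differences centred on all genes, H4 genes were evenly split, while most members of the other types were lower in replicate 2. Of 12 H4 genes, 6 were lower and 6 higher in replicate 2, with a median of -0.0022. Scaled by spike-in total, 9 were lower and 3 higher. Of the 45 other members, 37 were lower, with a median of -0.62. H3 had 10 of 11 lower (median -0.65), H2A 12 of 16 (median -0.63), H2B 10 of 13 (median -0.41) and H1 5 of 5 (median -0.63). The H4 median changed sign with the setting, from -0.19 when scaled by spike-in total to 0.08 without a filter on low values, while the medians of the other types stayed below 0 under each of the 12 alternatives. Without models within 20 bases of the coding length, 7 of 11 H2A genes were lower and 4 higher, with a median of -0.28. In that setting the median was -0.64 for H3, -0.41 for H2B and -0.53 for H1. The difference between types was not tested.

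A difference of 2-fold or more was found in 7 members (12.3%), a smaller share than the 19.0 percent of all genes. Among protein-coding genes with an effective length under 250 bases it was 28.2 percent of 142. At a mean of 10 TPM or more it was 6 of 54 members, a larger share than the 8.15 percent of all such genes. Of the 7 members, 6 were lower (10.5%, beside 8.90 percent) and 1 was higher in replicate 2 (1.75%, beside 10.1 percent). Hist1h2ak, an H2A gene (chromosome 13, 21753435 to 21753827), differed most, from 165 TPM in replicate 1 to 33.7 in replicate 2, with 1812 and 392 counts and a difference of -2.31. The H3 genes Hist1h3i and Hist1h3g went from 469 to 159 TPM (-1.58) and from 271 to 118 (-1.22). The H2A genes Hist1h2af, Hist1h2ah and Hist1h2an went from 238 to 97.4 TPM (-1.31), from 28.5 to 13.7 (-1.08) and from 353 to 179 (-1.0003). The H4 gene Hist1h4k went the other way, from 122 to 298 TPM (1.27), with 392 and 972 counts. Below 2-fold, the members with the largest differences upward in replicate 2 were Hist1h2bn (0.66), Hist1h4c (0.48), Hist1h2ap (0.26) and Hist1h4h (0.25).

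All 7 of these members had a short model in the deposited tables. A length within 20 bases of the coding length was found for 14 members, of which 12 had a mean of at least 1 TPM, and the 7 were among those 12. Of the 45 other members at that level, 0 differed by 2-fold. The median effective length was 105 bases in the first class and 248 in the second. Over all genes, the share at 2-fold or more also moved with length, from 56.0% of 116 genes below 125 bases to 8.43% of 1968 genes at 4000 bases or more. Among members, 6 of 14 below 125 bases and 1 of 20 from 125 to 250 bases were 2-fold apart, and none of the longer ones. The classes by model length were set after the values were seen, and the part of model length in these differences was not tested. Effective lengths themselves hardly moved between replicates. Hist1h2bp changed from 297 to 279 bases and Hist1h4k from 30.4 to 29.4, and the next were Hist1h2bn and Hist1h2bl, both from 92.2 to 93.1.

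**Figure D3:**
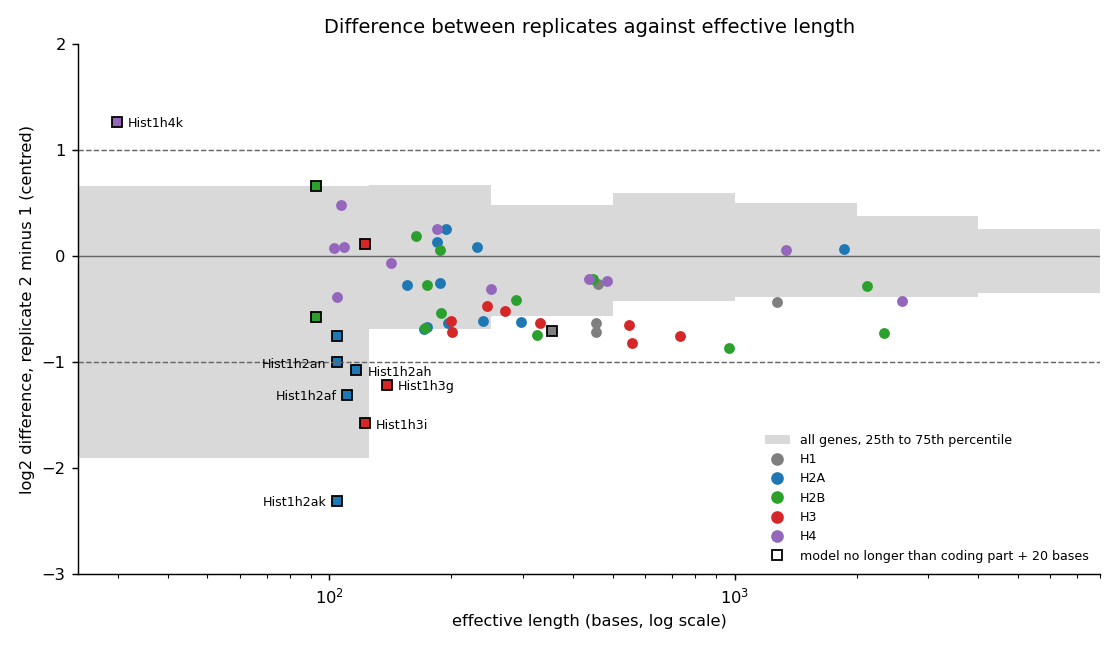
Centred log2 difference in TPM of each histone gene, replicate 2 minus replicate 1, against effective length in bases (log scale), coloured by type; squares mark models within 20 bases of the coding length, and grey boxes span the 25th to 75th percentile of all genes in each length class. The 7 labelled genes beyond the dashed lines at 2-fold are all squares and lie below 250 bases.

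H2A and H2B genes often lie head to head and share the DNA between their starts. There were 12 such pairs, with starts 176 to 306 bases apart, and in 10 both genes had a mean of at least 1 TPM. In 6 pairs both genes were lower in replicate 2, in 4 the genes differed in sign, and in 0 both were higher. The H2A gene had the higher TPM in both replicates in 5 pairs and the H2B gene in the other 5. The split was 4 and 6 when members were matched by transcript identifier, where Hist1h2br exceeded Hist1h2ap, and 4 and 6 with M21 lengths.

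The stretches between the RefSeq starts of the closest and the most divergent pair by their differences are printed on the plus strand, with CCAAT in capitals, which reads ATTGG where it lies on the other strand. They were chosen after the values were seen.
Hist1h2ad/Hist1h2bf: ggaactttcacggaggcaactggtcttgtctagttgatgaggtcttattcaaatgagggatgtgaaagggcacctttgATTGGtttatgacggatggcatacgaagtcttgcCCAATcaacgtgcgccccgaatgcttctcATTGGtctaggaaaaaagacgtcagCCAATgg
Hist1h2ak/Hist1h2bn: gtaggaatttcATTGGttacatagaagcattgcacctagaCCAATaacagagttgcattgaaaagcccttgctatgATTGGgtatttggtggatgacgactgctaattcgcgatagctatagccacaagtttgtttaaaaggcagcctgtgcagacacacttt
The first lies at chr13:23574208-23574380 and held 4 CCAAT matches. The second lies at chr13:21753913-21754075 and held 3. Hist1h2ad went from 191 to 122 TPM and Hist1h2bf from 247 to 156, differences of -0.67 and -0.68. Hist1h2ak went from 165 to 33.7 TPM while Hist1h2bn went from 278 to 447, differences of -2.31 and 0.66. Both genes of this second pair had models within 20 bases of the coding length.

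Levels within a pair could be far apart by TPM. Hist2h2ac stood at 224 and 241 TPM and its neighbour Hist2h2be at 5.75 and 3.50. By counts this pair was closer, at 5468 and 6195 against 1416 and 904. Their effective lengths in replicate 1 were 231 and 2331 bases. Hist1h2bg was at 674 and 473 TPM beside Hist1h2ae at 112 and 70.5. Hist1h2bk was at 149 and 157 TPM beside Hist1h2ah at 28.5 and 13.7. Hist1h2ac and Hist1h2bc were nearest in level by deposited TPM, at 193 and 164 against 159 and 140. With M21 lengths and the same counts they stood at 16.4 and 14.1 against 82.1 and 72.0 TPM. Their counts were 3807 and 3416 against 7518 and 6922.

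**Figure D4:**
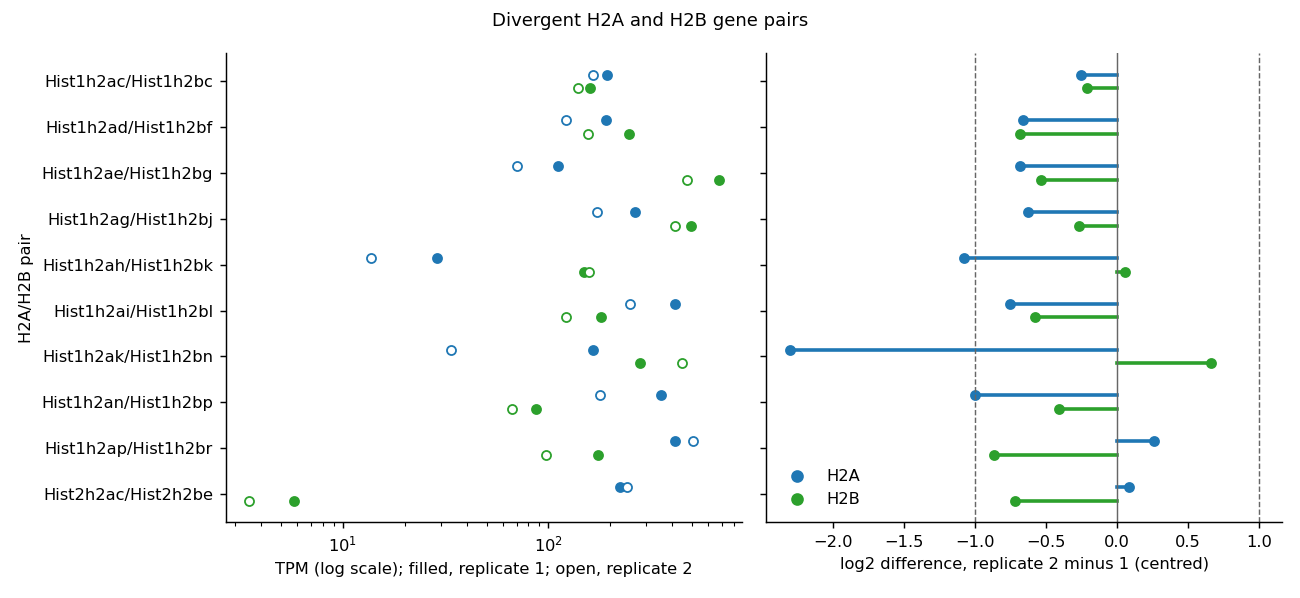
Head-to-head H2A (blue) and H2B (green) pairs: TPM on a log scale in replicate 1 (filled) and replicate 2 (open) on the left, and the centred log2 difference, replicate 2 minus replicate 1, on the right with dashed lines at 2-fold. In 6 of 10 pairs both genes lie below 0, and Hist1h2ak/Hist1h2bn are farthest apart.

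Genes that make and process histone messages were expressed at much lower levels per length than the histone genes. Of 23 listed, 20 were detected in both replicates. Of 21 with a mean of at least 1 TPM, 9 were lower and 12 higher in replicate 2, and the median difference was 0.08. The 4 highest were the nuclear factor Y subunit Nfyc at 43.0 and 46.1 TPM, the U7 particle protein Lsm10 at 8.04 and 49.3, the cleavage scaffold Sympk at 18.8 and 18.3, and Slbp at 7.18 and 25.6. Slbp and Lsm10 were among 4 genes of these 21 that were 2-fold or more higher in replicate 2, beside 10.1 percent of all genes, with Ccne1 at 1.48 and 4.30 TPM and Ccne2 at 1.07 and 6.68, which encode the E cyclins. Slbp had 951 and 1965 counts, a ratio of 2.07, and its effective length went from 1255 to 693 bases. Lsm10 had 540 and 1206 counts, a ratio of 2.23, and its effective length went from 636 to 221. The TPM of both thus moved with counts and with length. Ccne2 had 297 and 527 counts, a ratio of 1.77, and its effective length went from 2619 to 713, so its counts differed by less than 2-fold. Eri1, an exonuclease that acts on histone hairpins, was at 2.77 and 0.91 TPM and was the 1 gene of the list lower by 2-fold.

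Of 25 S-phase genes, 20 were detected, and of 21 with a mean of at least 1 TPM, 13 were lower and 8 higher in replicate 2 (median -0.30). The 4 highest were the sliding clamp Pcna at 43.6 and 37.6 TPM, thymidine kinase Tk1 at 30.6 and 27.1, and the ribonucleotide reductase subunits Rrm1 at 25.6 and 15.3 and Rrm2 at 19.99 and 20.62. All 13 histone chaperones and assembly genes were detected, and 10 of them were lower in replicate 2 (median -0.17). Rbbp7 was at 57.4 and 52.0 TPM, Npm1 at 40.6 and 47.4, Nap1l4 at 33.7 and 38.5, and the H3-H4 chaperone Asf1b at 40.4 and 28.8. Of 12 replacement variants, which are made outside S phase as well, 10 were detected and 8 of 11 were lower in replicate 2 (median -0.29). H3f3a was at 298 and 355 TPM, H2afz at 177 and 143, H3f3b at 107 and 96.4, and H2afx at 117 and 75.3. These lists share the 2 libraries with the histone genes and are no separate evidence on them.

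The tissue label was checked against markers. All 7 cardiomyocyte markers were detected, summing to 10822 and 11246 TPM. Beside the lower histone levels of replicate 2, thymocyte and lymphocyte markers added up to 8.69 and 0.55 TPM. None of these 10 genes was detected in both, and Cd3e and Dntt were at 0 in both. Erythroid precursor markers summed to 1382 and 1679 TPM, 4 of 9 detected, with Klf1 and Hbb-bh1 at 0 in both. Urothelium and epithelium markers summed to 13.4 and 135 TPM, 3 of 8 detected, none at 0 in both. Liver markers summed to 24.5 and 26.9 TPM with 3 of 6 detected, and lung markers to 3.90 and 0.40, with 0 of 5 detected. The part of these other cells in the histone differences was not tested. In such bulk RNA, fewer dividing cells and less histone RNA per cell cannot be told apart.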

How the data were processed

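The 2 replicates of 1 group held 69946215 and 73615802 expected counts in genes. The assembly mm10 and the GENCODE M4 annotation are named in the deposited notes; the aligner is not given in the sources used here, nor are program versions. The deposited expected counts are estimated fragments per gene or transcript, not normalized, which divide reads among copies. For TPM the authors divided counts by effective length and scaled the result to a common total, and the deposited FPKM are scaled by length and library total. The authors also deposited each transcript's share in percent of its gene, which served no result.

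Symbols, transcripts and positions were taken from GENCODE M21 (GRCm38) through identifiers stripped of their version. Spike-ins and the phiX control were left out of sums. A gene was detected at 1 TPM in both replicates; differences used a pseudocount of 0.1 and were set relative to the all-gene median (0.0221 on the log2 scale) over genes averaging at least 1 TPM. With 1 group, nothing was tested between groups. The calculation of differences was tested on simulated data.

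Members and lists were chosen with earlier results of these data known. Named were, per histone type, the 4 members of highest and the 1 of lowest mean TPM, all members of Hist2, Hist3 and Hist4 and all H1 genes, members at 0 counts, the 5 with the largest difference in each direction (mean of 1 TPM, summed count of 100), the 4 whose effective length changed most, and the 4 highest genes of each pathway list. Slbp-list genes beyond a 2-fold difference, marker genes, Hist1h2an, the members of the pairs, those without a hairpin or promoter match and those with overlapping intervals were named after their values were seen. The software was pandas 2.3.3 and numpy 2.4.6 under Python 3.11.15, matplotlib 3.10.9 for plots, and edgeR 4.0.16 (R 4.3.3) for TMM factors.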

Additional observations from a re-analysis of the deposited data

Results flagged for a closer look

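Counts outside the gene entries of the members were found for symbols of the same family. The transcript Hist1h2br-202 was listed under another gene identifier with 7171.59 expected counts in replicate 1 and 6745.51 in replicate 2. The transcript Hist1h2bq-201 was likewise listed apart, with 1640.11 and 709.7 counts. Hist2h2bb-201, the only transcript of a member not matched by gene identifier, had 718 and 613 counts, and Hist2h3c1-202 had 9.44 and 7.85. With these entries, Hist1h2bq and Hist1h2br together held 1067 and 816 TPM in place of 174 and 97.5. Of the 3 pseudogenes with a symbol of the family, Hist3h2bb-ps had 277 and 529 counts and Hist1h2al 29.15 and 33.14, above the 3 counts that a count of 0 allows. No control samples exist for these values.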

How the results depend on the processing

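With 81 alternative values over 10 results, 59 stayed within their limits and 22 moved. The limit was the SD of the 2 replicates for a share, 0.1 on the log2 scale for the median difference and a factor of 1.5 for counts of members. Leaving out a replicate could not move a share, because each replicate always lies within that SD of their mean. Matching by transcript identifier, lengths from GENCODE M21 and leaving out models near the coding length were chosen after seeing the data. The number of members detected stayed between 53 (at 10 TPM) and 59 (by transcript identifier). The family's share of TPM, 2.03%, became 0.648% by counts, 1.62% without Hist1h4d and 5.95% of protein-coding TPM. By counts, mean shares of the family were 32.0% for H4, 22.6% for H3, 17.3% for H2B, 10.7% for H1 and 82.5% for Hist1. Without Hist1h4d they were 35.1% for H4, 21.9% for H3, 22.6% for H2A, 16.7% for H2B, 3.70% for H1 and 87.1% for Hist1. With M21 lengths they were 34.2% for H4, 21.6% for H3, 24.5% for H2A, 16.7% for H2B and 84.8% for Hist1. By transcript identifier, H2B rose from 13.3% to 16.9%. The order of H2A, H3 and H2B differed between TPM, counts and matching by transcript identifier.

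The median difference of -0.47 was -0.66 when scaled by ERCC spike-in total, where the median of all genes shifted by -0.19; it lay between -0.49 and -0.40 under the other alternatives. The count of 2-fold differences, 7, was 6 to 9 under alternatives of scaling, pseudocount, filter and unit, and 0 when models near the coding length were left out. The Hist1h2an difference lies at the 2-fold limit and falls below it without centring.

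No paired analysis was possible because the series holds 1 group. Leaving out a replicate gives single-library shares, printed in the report, and no difference between replicates. Depth limits Hist1h1t, with 34 and 4 counts. The few counts of Hist1h4m, Hist1h2bq and Hist2h3c1 stand beside copies with identical coding sequences, and how reads were divided among them was not tested. The median difference of the H4 genes changed sign, as the report gives.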
